A study of Rattus norvegicus with 10 samples.

Results

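The genes described here are the uncoupling proteins Ucp1, Ucp2 and Ucp3 and 7 genes that mark heat-producing fat cells, Cidea, Elovl3, Cox7a1, Cox8b, Dio2, Ppargc1a and Prdm16. Each probe set whose platform annotation gives 1 of these 10 symbols was taken, which found 14 of the 31042 probe sets tested, for 10 of the 14217 genes with a single-symbol probe set. The genes were selected on the diet comparison of these arrays, in which the noodle minus control difference of Ucp3 stood out, so their differences between the diets are given as a description with no test.

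The samples were white adipose tissue from 10 male rats, 13 weeks old, with 1 array per animal. The noodle group of 5 animals was fed a diet in which 30% of the weight was instant noodle and fat supplied 26% of the energy, for 30 days by one label and 4 weeks by another. The control group of 5 animals received, per the labels, that diet with the seasonings left out. In both groups feeding was paired at about 60 g per kg of body weight per day under 12 hours of light and 12 of dark, and the labels name no strain, no fat depot and no further agent. No label tells which animal was paired with which, and the animals are called by their label numbers below.

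In brown fat, Ucp1 lets protons back across the inner mitochondrial membrane without making ATP, so that the energy of burnt fat leaves as heat. White fat normally holds little of it, but scattered beige cells with Ucp1 can arise there under cold or adrenergic stimulation. Ucp2 and Ucp3 are close relatives in the mitochondrial carrier family and are not the main heat source. Ucp2 is found in many tissues and in immune cells, and Ucp3 mainly in skeletal muscle, brown fat and heart, where fatty acid supply and thyroid hormone are known to raise it. Ppargc1a and Prdm16 are transcriptional regulators of the brown fat programme, and Dio2 activates thyroid hormone. Cidea is a lipid droplet protein, Elovl3 elongates fatty acids, and Cox7a1 and Cox8b are the tissue-restricted forms of subunits of cytochrome oxidase.

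The 250 bases before the start of the 3 uncoupling protein genes and of Cox8b, whose levels are set beside those of Ucp1 below, are shown as a description. Any link between these windows and the levels was not tested. They come from RefSeq on build GRCr8, and all 10 genes were matched to that table by gene identifier. The windows are, for Ucp3, chr1:164227660-164227909 (plus strand), for Ucp2, chr1:164251123-164251372 (plus strand), for Ucp1, chr19:41721422-41721671 (minus strand) and for Cox8b, chr1:205408274-205408523 (minus strand), and Ucp2 is the next protein-coding gene after Ucp3 in that annotation. Each is written 5′ to 3′ on the gene's strand and ends at the base before the start. Capitals mark AGGTCA, the core hexamer of nuclear receptor sites, and TATAAA, the TATA box, on either strand.
Ucp3: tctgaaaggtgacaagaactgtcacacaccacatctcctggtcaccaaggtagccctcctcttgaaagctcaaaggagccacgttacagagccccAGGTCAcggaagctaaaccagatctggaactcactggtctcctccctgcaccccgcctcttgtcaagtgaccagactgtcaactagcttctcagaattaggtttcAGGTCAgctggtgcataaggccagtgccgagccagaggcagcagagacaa
Ucp2: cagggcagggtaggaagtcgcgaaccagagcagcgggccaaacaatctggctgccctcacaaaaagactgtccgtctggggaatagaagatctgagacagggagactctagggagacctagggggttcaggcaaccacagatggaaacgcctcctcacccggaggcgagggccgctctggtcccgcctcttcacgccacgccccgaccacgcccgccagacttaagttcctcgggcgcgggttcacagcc
Ucp1: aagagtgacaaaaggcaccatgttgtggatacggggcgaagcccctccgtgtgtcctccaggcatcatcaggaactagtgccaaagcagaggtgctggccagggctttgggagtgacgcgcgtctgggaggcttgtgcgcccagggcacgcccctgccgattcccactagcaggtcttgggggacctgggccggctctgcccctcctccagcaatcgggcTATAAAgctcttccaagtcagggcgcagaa
Cox8b: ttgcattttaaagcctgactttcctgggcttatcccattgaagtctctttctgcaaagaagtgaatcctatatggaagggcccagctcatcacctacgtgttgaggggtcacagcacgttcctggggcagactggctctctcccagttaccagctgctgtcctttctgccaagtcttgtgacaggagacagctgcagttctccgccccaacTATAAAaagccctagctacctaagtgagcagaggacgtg
The Ucp3 window held 2 matches to AGGTCA, with first bases 155 and 50 before the start, and no TATAAA. The Ucp1 and Cox8b windows each held 1 TATAAA, 30 and 39 bases before the start, and no AGGTCA, and the Ucp2 window held neither. Among the genes whose windows are not printed, Dio2 also held 1 TATAAA, 220 bases before the start. Of 33469 promoter windows of this length in the table, 14.1% held AGGTCA and 12.9% held TATAAA on either strand. The direct repeat of AGGTCA with 1 base between its copies was in 0.0508% of windows and in none of the 10 genes' windows, and the E-box CACGTG was in 5.59% of windows and in none of these. The cAMP response element TGACGTCA was in 1.59% of windows and, among the 10 genes, in that of Ppargc1a, 181 bases before the start. These matches describe the letters only.

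The deposited table holds 1 processed value per probe set and array, read here as log2. Array medians lay between 6.17 and 6.18, and correlations between arrays between 0.993 and 0.998. Most of the table hardly varies. An SD over the 10 arrays above 0.01 was found for 2607 probe sets, 8.4% of those tested, and a probe set at or below 0.01 is called flat. Why so many values are flat is not given in the sources used here, so a flat probe set gives a level but no readable difference, and a difference of one probe set cannot be set in size against that of another. In the table as a whole, the nearest SDs on either side of this line were 0.00988 and 0.01. No thermogenic probe set was near it, the closest being Cox7a1 below, with an SD of 0.000336, and Ucp2 above, with 0.145. The 11 measured adipocyte markers had mean levels of 8.81 to 13.64, with the fat cell carbonic anhydrase Car3 at 13.64 and the fatty acid carrier Fabp4 at 13.30. The protocol text speaks of brain, and of 18 measured brain markers 16 lay at or below 5.89, the top of the range of bacterial control probe sets described next, with the glutamate transporter Slc1a3 at 9.34 and the myelin gene Mbp at 8.76.

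Of the 14 thermogenic probe sets, 6 from 5 genes varied and 8 from 5 genes were flat. The flat ones were those of Elovl3, Cox7a1 and Dio2, all 3 of Ppargc1a and both of Prdm16. As a yardstick for no signal, the array carries 27 probe sets for bacterial genes of the dap, lys, phe, thr and trp type, which the rat lacks, and these ranged from 5.05 to 5.89 with a median of 5.21 and SDs of at most 0.000581. Binding differs between probe sets, so this range is a guide and not a detection limit.

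In these samples the regulators and several effectors of the brown fat programme lay at that low end. Elovl3 stood at 5.29, Dio2 at 5.39 and Cox7a1 at 5.87 on all 10 arrays. The Prdm16 probe sets stood at 5.81 and 5.42, and the Ppargc1a probe sets at 5.93, 5.52 and 5.31. Only the first of the Ppargc1a probe sets lay above the bacterial range, by a few hundredths. The SDs of these 8 probe sets over the 10 arrays were 0.000103 to 0.000336, and the largest difference between the diets, that of Cox7a1, was 0.000418. For Cox7a1, 5 of 5 noodle animals lay above every control animal, but at the fourth decimal, where the deposited scale gives nothing to read. Whether these genes are silent in the tissue or their probe sets bind poorly was not tested.

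**Figure D1:**
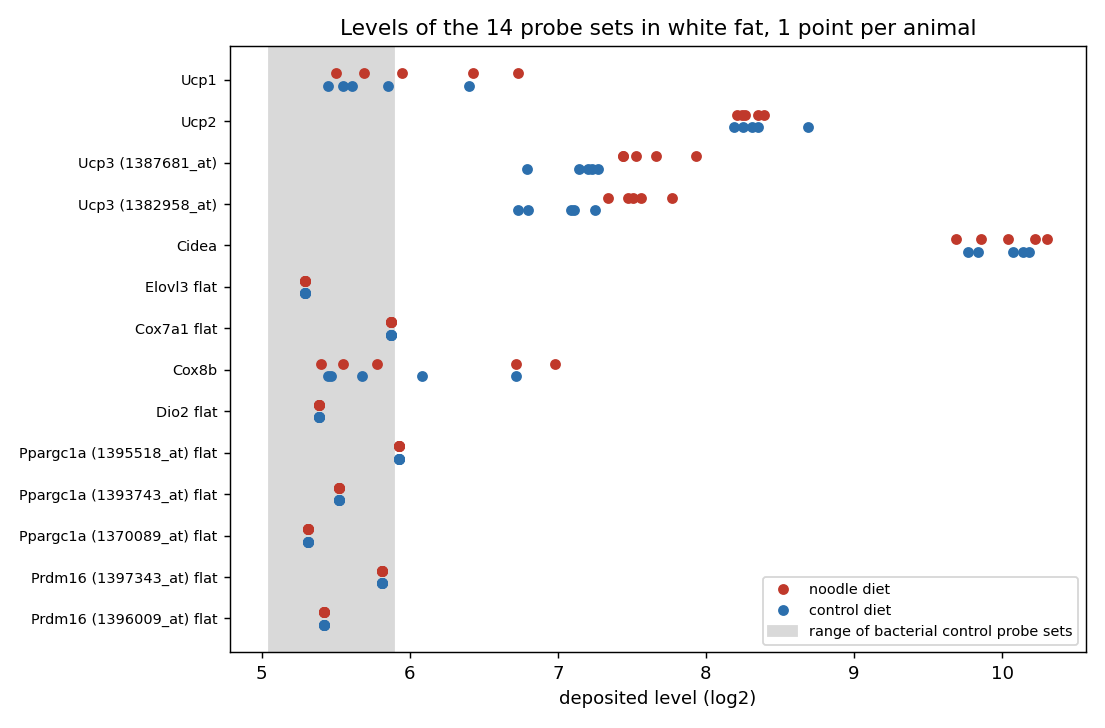
Deposited log2 level (horizontal axis) of each of the 14 probe sets, with 1 point per animal, noodle diet above control diet in each row; the grey band spans the bacterial control probe sets, 5.05 to 5.89. The 8 flat probe sets sit in or at the edge of the band, Ucp1 and Cox8b run from the band to 6.73 and 6.98, and Ucp2, Ucp3 and Cidea lie above it in every animal.

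Ucp3 was higher in every noodle animal than in any control animal, in both of its probe sets. In probe set 1387681_at, the brighter one, it stood at 7.66, 7.44, 7.93, 7.44 and 7.53 in noodle animals 1, 4, 7, 10 and 13, against 7.23, 7.20, 7.14, 7.27 and 6.79 in control animals 2, 5, 8, 11 and 14. Noodle animal 7 was the highest and control animal 14 the lowest, and the lowest noodle value lay 0.17 above the highest control value. The means were 7.60 ± 0.20 in the noodle group and 7.13 ± 0.19 in the control group (SD, n = 5 each), a difference of 0.47 ± 0.12 (SE) on the log2 scale, or 1.39-fold.

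Probe set 1382958_at, designed from another transcript record, gave the same separation. It stood at 7.47, 7.34, 7.77, 7.51 and 7.56 in the noodle animals, against 7.11, 7.09, 6.80, 7.25 and 6.73 in the control animals, in the same order of animals. The groups again did not overlap, with a gap of 0.09 between the lowest noodle and the highest control value. The difference was 0.53 ± 0.12 (SE), or 1.45-fold. Among all 2607 probe sets that varied, every noodle animal lay above every control animal in 9, or 0.345%, and the 2 probe sets of Ucp3 are among these 9. That separation is what brought Ucp3 to attention, and nothing is read from its rarity.

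The Ucp3 probe sets also followed each other within the diets, which does not depend on the contrast by which the gene was chosen. After subtracting each diet group's mean, Pearson's r between them was 0.81 over the 10 animals (two-sided exact permutation p = 0.00236, over the 14400 orders within groups) and Spearman's rho was 0.85 (exact permutation p = 0.00236). Without noodle animal 7 and control animal 14, the animals farthest from the median, and with the other 8 centred again, r was 0.50 (exact permutation p = 0.141), so the relation rests in part on those 2 animals. Over all 10 animals, the p of r adjusted over all other probe sets was 0.782. The 14400 orders allow no p under 6.94e-05, too large for 1 probe set alone to pass that adjustment. The closest other genes, described below, followed the brighter probe set as closely or more closely, from 0.81 for Dtx4 to 0.91 for Mccc2. The agreement is therefore not peculiar to probe sets of the same gene. No uncentred value is given, since the diets form separate clusters in both Ucp3 probe sets.

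No thermogenic probe set reached the limma threshold, nor did any other on the array. With limma and Benjamini-Hochberg adjustment, 0 of the 14 probe sets reached an adjusted p of 0.05, beside 0 of 31042, or 0.0%, in the whole table, where 1481 had an unadjusted p under 0.05, or 4.77%. Without control animal 14 the threshold was passed by 1 probe set, none of these 14. Of the 6 thermogenic probe sets that varied, 5 were higher and 1 lower in the noodle group, with a median difference of 0.25, beside a median of -0.0121 over all 2607 that varied, and 2 of the 5 belong to Ucp3.

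Ucp1 itself did not separate the diets. It stood at 5.69, 5.95, 5.50, 6.73 and 6.43 in noodle animals 1, 4, 7, 10 and 13, against 5.85, 6.40, 5.55, 5.45 and 5.61 in control animals 2, 5, 8, 11 and 14. Noodle animals 10 and 13 and control animal 5 were high, 6 of the 10 animals lay within the bacterial range, and the groups overlapped. The means were 6.06 ± 0.51 in the noodle group and 5.77 ± 0.38 in the control group (SD, n = 5 each), a difference of 0.29 ± 0.28 (SE). Without noodle animal 10 the difference was 0.124, and without control animal 5 it was 0.449.

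Cox8b, the cytochrome oxidase subunit form of heart, muscle and brown fat, picked out the same animals. It stood at 5.78, 5.40, 5.55, 6.98 and 6.72 in the noodle animals, against 6.08, 6.72, 5.68, 5.45 and 5.47 in the control animals. Noodle animals 10 and 13 and control animal 5 were again the highest, followed by control animal 2, and 6 of the 10 animals lay within the bacterial range. The difference between the diets was 0.21 ± 0.39 (SE), and it was -0.0179 without noodle animal 10 and 0.416 without control animal 5.

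Cidea was bright in every animal, and its diet groups overlapped. It stood at 10.04, 9.69, 9.86, 10.30 and 10.22 in the noodle animals, against 10.14, 10.07, 10.18, 9.84 and 9.77 in the control animals. Noodle animals 10 and 13 were the highest and noodle animal 4 the lowest, so the noodle values lay on both sides of the control values. The SD over 5 animals was 0.251 with the noodle diet and 0.184 with the control diet, and the difference of 0.02 ± 0.13 (SE) changed sign when single animals were left out, from -0.05 without noodle animal 10 to 0.102 without noodle animal 4.

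Ucp2 was steady apart from 1 control animal. It stood at 8.35, 8.39, 8.24, 8.21 and 8.26 in the noodle animals, against 8.31, 8.35, 8.25, 8.19 and 8.69 in the control animals. Control animal 14, the highest for Ucp2, was the lowest for Ucp3. The difference was -0.07 ± 0.09 (SE), and it was 0.0172 without control animal 14. Ucp2 is abundant in macrophages, and of 16 measured macrophage markers 15 varied, of which 15 had a higher mean in the noodle group and 0 reached the threshold (limma, adjusted p over all probe sets). Their median difference was 0.15, beside -0.0121 over all 2607 probe sets that varied. The list's mean level ranged from 8.21 to 8.65 in noodle animals and from 8.12 to 8.56 in control animals. Several of these markers moved together, with noodle animal 10 the lowest noodle animal for C1qa, C1qb, C1qc and Ctss. The 15 directions are therefore not independent of each other. The part of macrophages in the Ucp2 values was not tested.

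**Figure D2:**
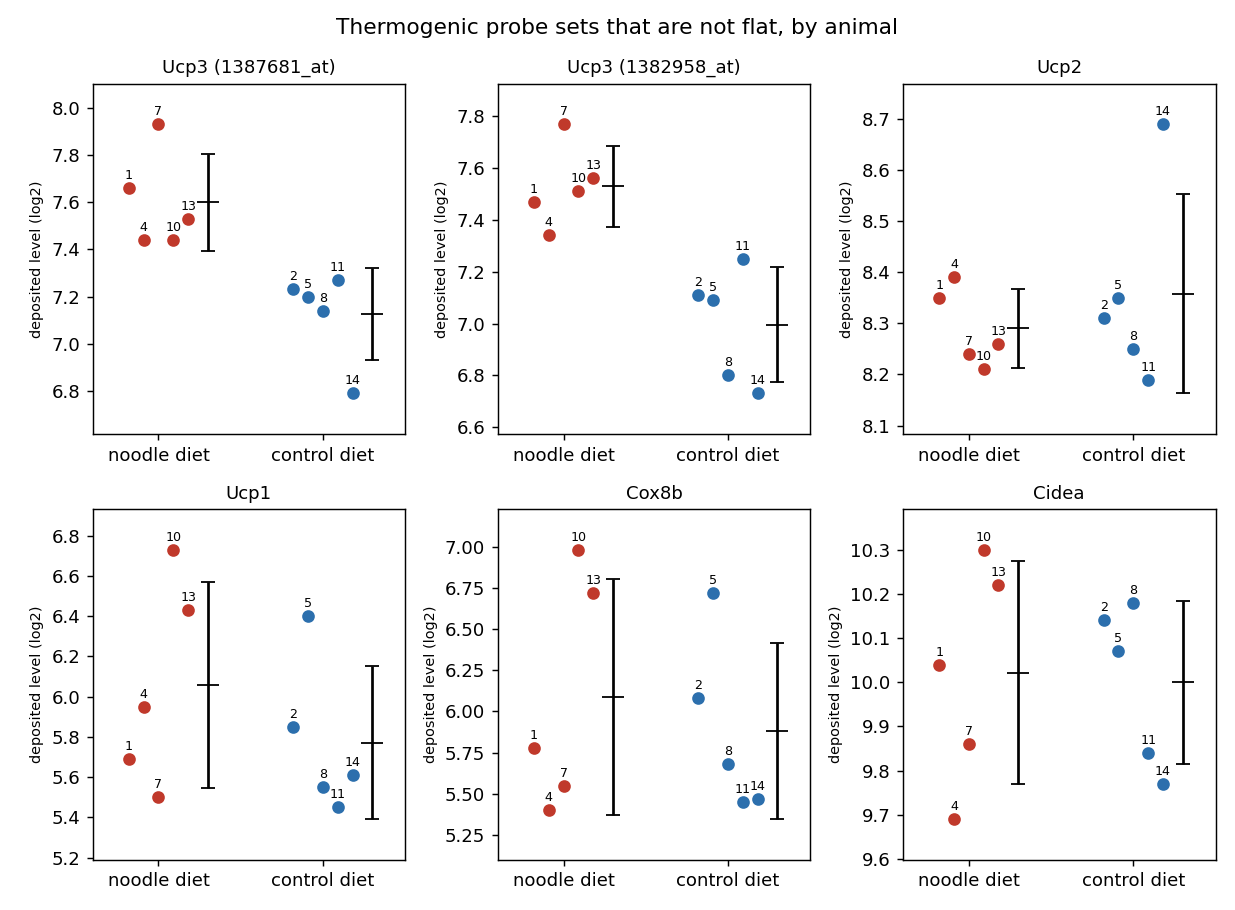
Deposited log2 level (vertical axes, each with its own range) of the 6 probe sets that varied, 1 point per animal with its label number; bars give the mean and SD of 5 animals. The noodle points lie wholly above the control points in both Ucp3 panels and overlap them in the Ucp2, Ucp1, Cox8b and Cidea panels, where noodle animals 10 and 13 are high for Ucp1, Cox8b and Cidea.

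The diet groups accounted for most of the variation of Ucp3 and little of that of the other genes. Of the sum of squares over the 10 animals, the part between the diets was 64.0% for Ucp3 probe set 1387681_at and 70.9% for 1382958_at. It was 11.4% for Ucp1, 5.85% for Ucp2, 3.21% for Cox8b and 0.235% for Cidea. As all of these use the contrast by which the genes were chosen, they are descriptions.

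**Figure D3:**
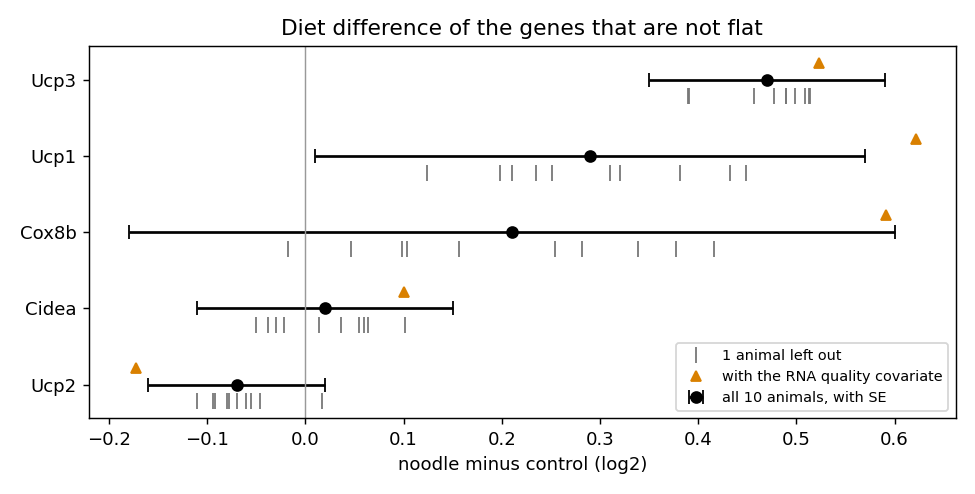
Difference in log2 level, noodle minus control (horizontal axis), of the probe set with the highest mean for each of the 5 genes that varied; circles and bars give the value and SE from all 10 animals, grey ticks the values with 1 animal left out and triangles the values with the RNA quality measure as a covariate. The Ucp3 values lie between 0.39 and 0.52, while ticks fall on both sides of 0 for Cox8b, Cidea and Ucp2.

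No relation of Ucp3 with Ucp1 was found over the animals. The within-diet r of Ucp3 (1387681_at) with Ucp1 was -0.37 (two-sided exact permutation p = 0.326), with an adjusted p of 0.863 over the same correlation with all 31041 other probe sets. Spearman's rho was -0.43 (exact permutation p = 0.251), and r was -0.45 without noodle animal 7 and control animal 14 (exact permutation p = 0.33). In the noodle group, animal 7 had the most Ucp3 and the least Ucp1, and without that animal alone r was -0.07, while without control animal 14 alone it was -0.62. Pooled over the diets r was 0.06 (permutation p = 0.862) and rho 0.12 (permutation p = 0.759), and r was 0.24 without those 2 animals. With the other Ucp3 probe set the within-diet r was -0.03. With so few animals, more than a weak relation could be missed, as the r of -0.62 had an exact permutation p of 0.104. Ucp1 also lay within the bacterial range in 6 of the 10 animals.

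Nor was one found with the other brown fat genes. Its within-diet r was -0.12 with Cox8b (exact permutation p = 0.756, adjusted p = 0.967) and 0.05 with Cidea (exact permutation p = 0.883, adjusted p = 0.987). Spearman's rho was -0.10 (exact permutation p = 0.801) and 0.03 (exact permutation p = 0.949), and r was -0.21 and -0.08 without noodle animal 7 and control animal 14. With its gene neighbour Ucp2 r was -0.66 (exact permutation p = 0.0714, adjusted p = 0.782) and rho -0.55 (exact permutation p = 0.118), and r was 0.05 without noodle animal 7 and control animal 14, so that value rests on those animals. Control animal 14 had the highest Ucp2 and the lowest Ucp3. The adjusted p values run over all 31041 other probe sets, of which 0, or 0.0%, passed for Ucp3. The smallest p that the 14400 orders allow is 6.94e-05, so 1 probe set alone could not pass, whatever its r. These adjusted values therefore cannot show that a relation is absent.

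Ucp1 and Cox8b, by contrast, were high together in noodle animals 10 and 13 and control animal 5. Their within-diet r was 0.93 (exact permutation p = 0.00285) and rho 0.76 (exact permutation p = 0.0382). Noodle animal 10 was the highest of its group for both genes and control animal 5 of its own, while noodle animal 4 departed, with 5.95 for Ucp1 and the lowest Cox8b value, 5.40. Without noodle animal 10 and control animal 5, the farthest from the median of Ucp1, r was 0.82 (exact permutation p = 0.0521), and with 1 animal left out it lay between 0.89 and 0.99. Noodle animal 13, also high for both genes, stayed in the r of 0.82, and leaving it out as well was not tried. For each gene 6 of the 10 animals lay within the bacterial range, so the relation rests mainly on the few high animals. This pair was looked at after its values were seen, and over all 31041 other probe sets its adjusted p was 0.999, with 0, or 0.0%, passing. As for Ucp3, 1 probe set alone could not pass that adjustment. Ucp1 and Cidea had a within-diet r of 0.61 (exact permutation p = 0.105) and rho of 0.53 (exact permutation p = 0.186), and r was 0.49 without those 2 animals. In whole tissue, more cells with these transcripts and more of the transcripts per cell cannot be told apart.

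**Figure D4:**
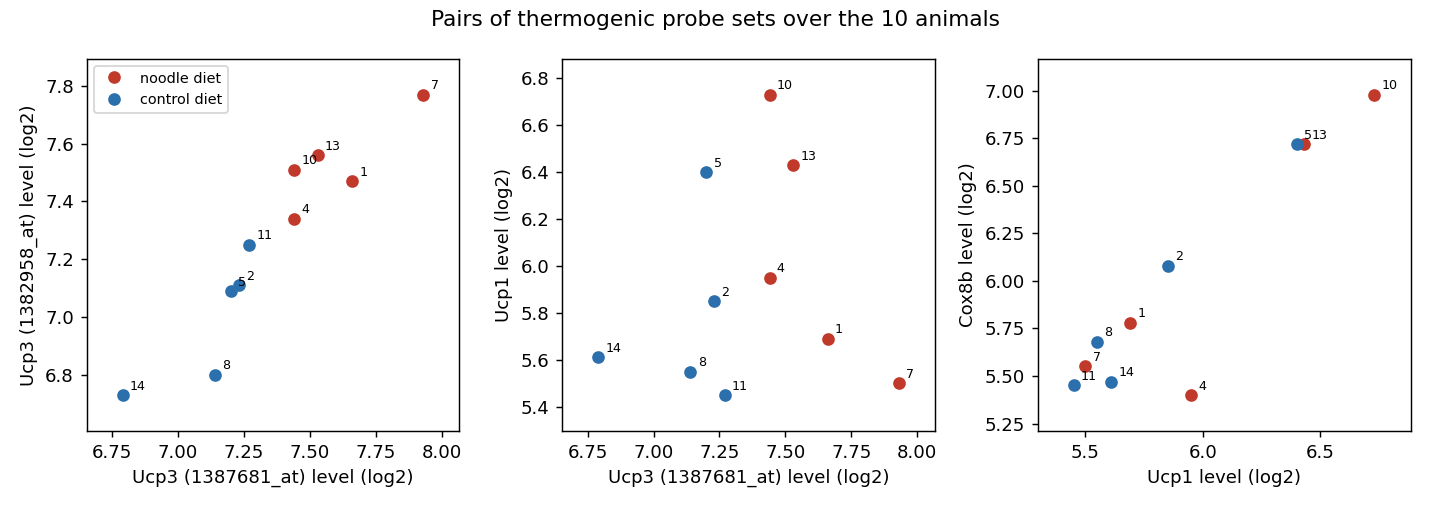
Deposited log2 levels of 3 pairs of probe sets over the 10 animals, 1 point per animal with its label number. The Ucp3 probe sets rise together with the diets apart, Ucp3 against Ucp1 shows no common slope, and Ucp1 against Cox8b has noodle animals 10 and 13 and control animal 5 at the upper end.

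Outside the 10 thermogenic genes, the genes whose pattern was closest to Ucp3 within the diets, among those that varied, were Mccc2, Mdfic, Marcks, Zfp423 and Dtx4. Mccc2, a subunit of the leucine-breakdown enzyme methylcrotonyl-CoA carboxylase, had a within-diet r of 0.91 over the 10 animals. Zfp423, a transcription factor known from mouse fat to hold back the thermogenic programme, had an r of 0.85. Both had means close to equal between the diets, with differences of -0.09 ± 0.18 and 0.07 ± 0.16 (SE). Mdfic had an r of 0.89, Marcks, a membrane-bound target of protein kinase C, 0.85, and Dtx4, an E3 ubiquitin ligase, 0.81. Dtx4 differed by 0.43 ± 0.12 (SE) between the diets, with 8.24, 8.26, 8.48, 7.92 and 8.0 in noodle animals and 7.83, 7.71, 7.71, 7.98 and 7.53 in control animals. The groups overlapped for Dtx4, with noodle animal 10 below control animal 11. Of 2606 other probe sets that varied, 25, or 0.959%, had an r of 0.7 or more with Ucp3, and control animal 14 was the lowest control in all 5 genes. Without noodle animal 7 and control animal 14, r was 0.70 for Mccc2, 0.74 for Mdfic, 0.80 for Zfp423, 0.50 for Dtx4 and 0.18 for Marcks, so the place of Marcks rests on those animals.

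Cox8b, with its r of 0.93, was closer to Ucp1 than any gene outside the 10, and the closest of those by the same measure were Rnpepl1, Itga7, Ptprs, Per1 and Tob2. Rnpepl1 and Ptprs, with r of 0.90 and 0.88, hardly varied, with ranges of 8.86 to 8.92 and 7.09 to 7.16. Per1, a period gene of the daily clock, had an r of 0.84 and stood at 6.56, 7.04, 6.50, 7.41 and 7.37 in noodle animals, against 7.31, 7.37, 7.22, 7.06 and 7.41 in control animals. Tob2, an antiproliferative regulator of mRNA decay, had an r of 0.83 and stood at 7.63, 8.22, 7.61, 8.91 and 8.70 in noodle animals, against 8.23, 8.29, 7.69, 8.27 and 8.10 in control animals. For both genes noodle animals 10 and 13 were the highest of the noodle group and animals 1 and 7 the lowest, as for Ucp1. The likeness was looser in the control group, where animal 14 was the highest for Per1 but had Ucp1 at 5.61, below animals 2 and 5. Itga7, an integrin that binds laminin, had an r of 0.88. For Ucp1, 49 of 2606 probe sets, or 1.88%, had an r of 0.7 or more, and here too the closest genes are the top of a ranking. Without noodle animal 10 and control animal 5, r was 0.70 for Rnpepl1, 0.68 for Itga7, 0.77 for Ptprs, 0.93 for Per1 and 0.84 for Tob2.

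**Figure D5:**
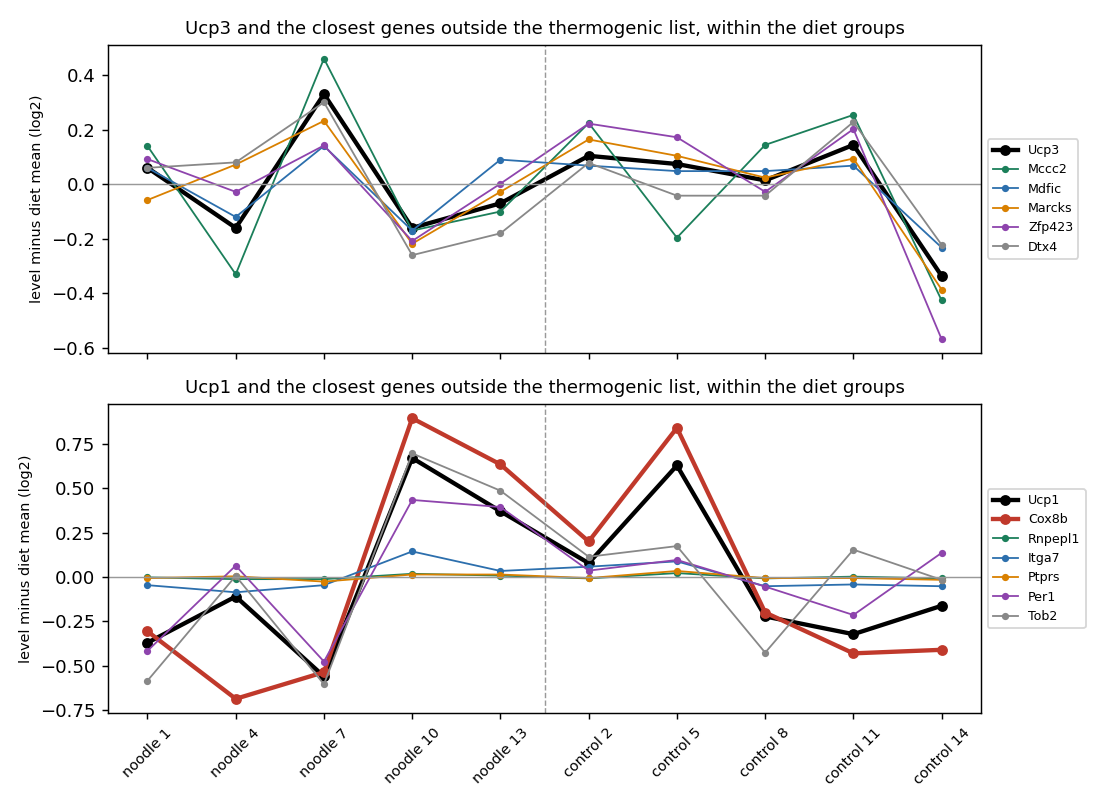
Deviation of each animal's log2 level from its diet group's mean (vertical axes) for Ucp3 and the 5 genes outside the thermogenic list closest to it (upper panel) and for Ucp1, Cox8b and the 5 genes outside that list closest to Ucp1 (lower panel), noodle animals left of the dashed line. Ucp3 and its companions peak in noodle animal 7 or fall in control animal 14, while Ucp1 and Cox8b peak in noodle animals 10 and 13 and control animal 5.

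The wider pathway lists, fixed with earlier results of these data known, held no gene that passed the threshold (limma, adjusted p over all probe sets), beside the 0.0% of the whole table. Each is given by its measured genes, those that varied and their directions. Of 22 measured thermogenic regulators, 7 varied, 3 of them higher and 4 lower in the noodle group. The receptor that starts the thermogenic response to noradrenaline in rodent fat, Adrb3, was bright, with 9.61 ± 0.23 in the noodle group and 9.65 ± 0.38 in the control group (SD, n = 5 each). Pparg, the master regulator of fat cells, differed by -0.10 ± 0.21 (SE), and the corepressor Nrip1, which restrains oxidative genes in fat, by -0.05 ± 0.08.

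Of 18 measured beige and brown fat markers outside the 10 genes, 5 varied, 3 higher and 2 lower. The fatty acid carrier of oxidative tissues, Fabp3, had 7.80 ± 0.44 in the noodle group and 7.88 ± 0.22 in the control group, and its within-diet r with Ucp1 was 0.70 and with Ucp3 0.02. Cpt1b, the muscle and brown fat form of carnitine palmitoyltransferase, was picked out after its values were seen, with r of 0.81 with Ucp1 and 0.06 with Ucp3 and a difference of 0.02 ± 0.16 between the diets. Pdk4, a switch towards fat burning, differed by -0.10 ± 0.21 and S100b by 0.04 ± 0.12, and the brown fat transcription factor Zic1 was flat. The other markers that varied had a lower within-diet r with Ucp1, with -0.01 for Pdk4, 0.42 for S100b and 0.35 for Acot2. Among 11 genes of creatine and calcium cycling, 2 varied, Gatm, which makes the precursor of creatine, with -0.42 ± 0.27, and Gamt, which completes it, with 0.13 ± 0.14.

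The relatives of the uncoupling proteins gave no called difference either. Of 17 measured mitochondrial carriers, 5 varied, all 5 with higher means in the noodle group and a median difference of 0.10. The citrate carrier Slc25a1 differed by 0.22 ± 0.20, the adenine nucleotide carrier Slc25a5 by 0.10 ± 0.08, the dicarboxylate carrier Slc25a10 by 0.11 ± 0.14 and the kidney-type carrier Slc25a30, close in sequence to the uncoupling proteins, by 0.06 ± 0.18. Of 12 other measured cytochrome oxidase subunit genes, 4 varied, 3 higher and 1 lower. Cox8a, the broadly expressed counterpart of Cox8b, stood at 11.87 ± 0.02 in the noodle group and 11.86 ± 0.01 in the control group, and Cox6c differed by 0.13 ± 0.06.

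Genes that respond to fatty acid supply or thyroid hormone, as Ucp3 is known to do, also held 0 calls. Of 16 measured fatty acid responsive genes, 11 varied, 6 higher and 5 lower, with a median difference of 0.01. Angptl4, an inhibitor of lipoprotein lipase induced by fasting, differed by -0.15 ± 0.17, Cpt1a by -0.08 ± 0.06, Plin2, a lipid droplet coat, by 0.10 ± 0.09 and the fatty acid transporter Cd36 by 0.04 ± 0.01. Their within-diet r with Ucp3 was 0.19, -0.35, 0.62 and 0.44, and that of Vnn1 was -0.46. For the other fatty acid responsive genes that varied it lay between -0.12 and 0.26. Of 10 thyroid hormone targets, 5 varied, 3 higher and 2 lower. Thrsp, a lipogenic thyroid target, differed by 0.05 ± 0.12, Hr by 0.02 ± 0.15 and Klf9 by -0.24 ± 0.16. The within-diet r of Klf9 with Ucp3 was -0.73, with control animal 14 the highest for Klf9 at 9.86. For the other targets that varied, r with Ucp3 was 0.23 for Thrsp, 0.09 for Hr, 0.20 for Me1 and 0.21 for Thrb.

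Ucp3 is also abundant in skeletal muscle, and the muscle markers were therefore set beside it. Of 19 measured muscle markers, 2 varied and 11 lay at or below 5.89. The muscle actin Acta1 stood at 5.37, the fast myosin Myh4 at 5.23 and the muscle creatine kinase Ckm at 5.78, all flat and within the bacterial range. Myh1, represented by the brightest of its 5 probe sets, stood at 10.24 ± 0.21 in the noodle group and 10.29 ± 0.15 in the control group, and its within-diet r with Ucp3 was 0.01. That level is far from those of the muscle myosins Myh2, flat at 5.30, and Myh4, and whether this probe set reports Myh1 was not tested. The other marker that varied, the myosin-binding protein Mybpc1, stood at 5.77 ± 0.09 in the noodle group and 5.92 ± 0.28 in the control group, and its within-diet r with Ucp3 was -0.72, with control animal 14 the highest at 6.37. The list's mean level ran from 6.02 to 6.05 in noodle animals and from 6.03 to 6.08 in control animals, but as most of its genes were flat this mean could hardly move, and the part of muscle in the Ucp3 values was not tested. The brown fat marker list, which holds 8 of the 10 genes among its 9 measured, ran from 6.10 to 6.44 in noodle animals and from 6.08 to 6.35 in control animals.

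A measure of RNA quality differed between the diets beside these values. The 3-prime minus 5-prime signal, averaged over the array's Actb and Gapdh controls, was 0.837 ± 0.069 in noodle animals and 0.950 ± 0.084 in control animals (SD, n = 5 each, two-sided exact permutation p = 0.0476), with 0.0079 the smallest p the design allows. With it as a covariate, Ucp3 differed by 0.523 ± 0.164 (SE) in one probe set and 0.596 ± 0.157 in the other, against 0.47 ± 0.12 and 0.53 ± 0.12 without it. Ucp1 then differed by 0.622 ± 0.329, Cox8b by 0.591 ± 0.482, Cidea by 0.100 ± 0.179 and Ucp2 by -0.172 ± 0.110, each larger in size than without it. The within-diet r of the measure was 0.17 with Ucp3 and 0.50 with Ucp1. As the measure itself differs between the diets, its part and that of the diet cannot be told apart here.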

How the data were processed

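White adipose tissue RNA of 10 rats was measured on 1 rat expression array per animal. The authors deposited 1 processed value for each probe set in each animal, read as log2 because of the span of the values; the log base and the authors' normalization are not stated in the labels. The 57 array control probe sets were left out of the tests. Of 31042 probe sets, 20826 have 1 symbol in the platform annotation, 436 several and 9780 none, and a gene is represented by its probe set with the highest mean. Groups came from the labels, with noodle minus control compared with lmFit and eBayes of limma 3.58.1 under R 4.3.3 (constant prior, Benjamini-Hochberg adjustment across the whole table, threshold 0.05). Correlations used values centred within each diet, with exact permutation within groups (14400 orders, two-sided) or, pooled, 100000 permutations, adjusted over all other probe sets. The array number limits the precision. The tests were tested on simulated data: limma found 33.7%, 77.2% and 97.3% of 200 varying probe sets changed by 0.5, 1 and 2 log2 units. The genes, lists and tests were chosen with earlier results of these data known. Named were every probe set of the 10 genes, the 5 genes closest to Ucp3 and to Ucp1 within the diets and, from each list, up to 4 genes with the smallest p that varied and the 2 brightest; values are given for some of these. Alternatives were quantile normalization, median centring, the RNA quality covariate, array weights, an intensity trend, filters on mean level and SD, the other Ucp3 probe set, and leaving out each animal.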

Additional observations from a re-analysis of the deposited data

Results flagged for a closer look

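In groups of 5 animals, a value was singled out when its gap to the nearest other value took up more of the group's range than Dixon's 95% limit of 0.71. Of 34 groups examined, 5 were singled out, where chance singles out about 1 in 20, and several of the genes were chosen for their likeness to Ucp3 or Ucp1. Control animal 14 had Ucp3 (1387681_at) at 6.79, with the nearest control at 7.14. The same animal had Mdfic at 8.13, with the nearest control at 8.41, and Marcks at 10.45, with the nearest control at 10.86. Control animal 5, the control with the highest Ucp1, had Rnpepl1 at 8.92, with the nearest control at 8.90, and Ptprs at 7.16, with the nearest control at 7.12.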

How the results depend on the processing

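The count of probe sets past the threshold was 0 under 16 of 17 alternatives and 1 without control animal 14 (the cause was not tested). The Ucp3 difference stayed within 1 within-group SD of its value under 16 of 16 alternatives, at 0.39 to 0.514 with 1 animal left out and 0.383 to 0.535 otherwise. The Ucp1 difference did so under 14 of 14, at 0.124 to 0.449 with 1 animal left out and up to 0.622 with the RNA quality covariate. The within-group SD of Ucp1, 0.452, exceeds its difference of 0.29, so that count could hardly fail and does not show a steady difference. The Cidea, Cox8b and Ucp2 differences changed sign in 4, 1 and 1 of 14 settings. The Ucp3 and Ucp1 correlation missed an unadjusted p of 0.05 under 16 of 16 alternatives, at -0.62 to -0.07 with 1 animal left out, and that of the Ucp3 probe sets passed it under 12 of 13, at 0.72 to 0.90 with 1 animal left out. The exception, chosen after seeing the data, left out noodle animal 7 and control animal 14 and gave 0.50 (exact permutation p = 0.141), with fewer animals. That of Ucp1 and Cox8b, whose alternatives were chosen after seeing the data, passed it under 12 of 13, with 0.82 (exact permutation p = 0.0521) without noodle animal 10 and control animal 5. No paired analysis was possible because the groups share no animal numbers and no label says which animals were fed as a pair. Differences of flat or dim probe sets are not readable here.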
